A study of Mus musculus with 1528 samples.

Results

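The MHC class II pathway was followed in single bone marrow-derived macrophages (BMDMs) through 8 genes: H2-Aa, H2-Ab1 and H2-Eb1, which encode the classical class II chains, H2-DMa, H2-DMb1 and H2-DMb2, which encode the peptide editor H2-DM, Cd74, which encodes the invariant chain, and Ciita, which encodes the class II transactivator. The genes were chosen by name from the 55421 genes of the count table, and all 8 passed the filter on low values that 17034 genes passed. The cells were wild-type C57BL/6 BMDMs grown from bone marrow with M-CSF, the macrophage growth factor, and taken from 2 mice. Cells of each mouse were stimulated for 24 h with IL4 and IL13 (the IL4+IL13 group) or with IL4, IL13 and TNF (the IL4+IL13+TNF group), each cytokine at 10 ng/ml. IL4 and IL13 drive alternative, or M2, activation, and TNF is an inflammatory cytokine. Live cells were sorted singly into 4 plates of 384 wells without a stated macrophage gate, so other cells of a bone marrow culture could be among them, and no culture without cytokines or with TNF alone was analysed here. The comparison asks how TNF changes class II genes in cells that receive the M2 stimulus.

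Libraries were made by Smart-seq2, a full-length method with 1 well per cell. After the cell filter 1386 of 1524 wells were kept, with 357 and 333 cells of mouse 1 and mouse 2 in the IL4+IL13 group and 347 and 349 in the IL4+IL13+TNF group. Kept cells held 200235 to 6122892 fragments, and the medians of the 4 sets ran from 447264 to 490310. Plates 2 and 3 held mouse 1 and plates 4 and 5 held mouse 2, with both treatments on every plate. The mouse is therefore the replicate (n = 2 per treatment), the plates of a mouse are technical repeats, and cells of 1 mouse are not replicates of a treatment. No plate held both mice, and the authors describe 2 independent experiments without stating which plates belonged to each. A difference between the mice thus cannot be told apart from one between their plates or experiments. Within a plate the IL4+IL13 wells lay in rows A to H and the IL4+IL13+TNF wells from row I on. Treatment and well position thus cannot be told apart, also not with the mouse or the plate as a block. Of the 8 macrophage markers, Adgre1 (F4/80) stood at 671 to 917 CPM and Csf1r (the M-CSF receptor) at 849 to 1322 CPM in the 4 sums, where CPM is the usual count of a gene scaled to the library total. Mertk stood at only 6.15 to 33.7 CPM. Fcgr1 stood at 70.0 and 69.2 CPM without TNF and at 19.2 and 20.1 CPM with it. In both mice 6 of the 8 were lower with TNF and 1 was higher.

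Class II molecules are pairs of an alpha and a beta chain that carry peptides from the endosome to the cell surface, where CD4 T cells read them. The invariant chain fills the groove and guides the pair to the endosome, proteases cut it down to a short stub, and H2-DM exchanges that stub for a peptide. Ciita does not bind DNA itself but docks on the RFX, CREB and NF-Y proteins bound to the X and Y boxes that class II promoters share. Interferon gamma is the best known inducer of Ciita in macrophages.

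H2-Aa (ENSMUSG00000036594), the alpha chain of the I-A molecule, lies on the minus strand at chr17:34282744-34287823 of mm10. H2-Ab1 (ENSMUSG00000073421), the beta chain of I-A, lies on the plus strand at chr17:34257689-34269419. H2-Eb1 (ENSMUSG00000060586), the beta chain of the I-E molecule, lies at chr17:34305867-34316674. The alpha chain of I-E is annotated as a pseudogene in this strain background (H2-Ea-ps) and stood at 0.0223 to 0.0493 CPM in the 4 sums, so H2-Eb1 transcripts are not known to yield an I-E pair in C57BL/6. H2-DMa (ENSMUSG00000037649), H2-DMb2 (ENSMUSG00000037548) and H2-DMb1 (ENSMUSG00000079547) follow one another on the plus strand at chr17:34119541-34139101, chr17:34143307-34151555 and chr17:34153072-34160230. Ciita (ENSMUSG00000022504) lies at chr16:10480059-10528418 on the plus strand, and Cd74 (ENSMUSG00000024610) outside both regions. Exons of H2-DMa share 360 bases (10.4% of its exon length) with Brd2 on the opposite strand and those of Ciita share 329 bases (3.45%) with Dexi on the opposite strand. The fragments were counted without strand, so reads of such stretches are uncertain.

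The promoters of 3 members are shown because they carry, in the same order and at nearly the same spacing, letters of the X and Y boxes on which Ciita docks. The sequences come from RefSeq promoters of build GRCm38.p6, which held 1 or more entries for 5 of the 8 members. Capitals mark GATTGG, the letters of the Y box, and before it TGACGTCA or ATGATGC, letters of the X box region, and each window runs 5′ to 3′ on the strand of the gene.
H2-Aa, chr17:34287855-34287922, minus strand: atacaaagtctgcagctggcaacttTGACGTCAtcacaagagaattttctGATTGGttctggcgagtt
H2-Eb1, chr17:34305757-34305824, plus strand: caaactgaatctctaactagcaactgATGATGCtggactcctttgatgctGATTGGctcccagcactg
H2-DMb2, chr17:34145108-34145175, plus strand: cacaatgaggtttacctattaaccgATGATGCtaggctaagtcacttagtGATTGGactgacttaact
Counted back from the RefSeq gene start, GATTGG began at base -49 in H2-Aa, -60 in H2-Eb1, -91 in H2-DMb2 and -62 in H2-DMb1, with ATGATGC at -87 in the last. The run between the marked words was 17 bases long in H2-Aa and H2-Eb1 and 18 in H2-DMb1 and H2-DMb2. Over 68 bases set against each other at the Y box, H2-DMb1 and H2-DMb2 shared 86.8% of positions, whereas the other 5 pairs shared 27.9 to 35.3%. Neither X letters nor a Y box on this spacing were found for the H2-DMa starts, where GATTGG occurred once, at -199 of the second start. On both strands GATTGG was present in 16.1% of all 32851 promoters of 300 bases, ATGATGC in 2.46% and TGACGTCA in 1.79%. The ordered pair, with the X word up to 40 bases before GATTGG on the gene strand, was present in 27 promoters (0.0822%). Among them are those of H2-Aa, H2-Eb1, H2-DMb1 and H2-DMb2 themselves and that of the class II gene H2-Ob. These words were picked after the promoters of the members had been read, and no occurrence in the members overlaps another. In the GENCODE vM21 annotation the H2-Aa window overlaps no gene, the H2-Eb1 window lies in an intron of the gene Gm20513 and the H2-DMb2 window in an intron of a longer model of H2-DMb2 itself.

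The 3 classical genes and Cd74 were higher with TNF in both mice and on all 4 plates, whereas H2-DMa and Ciita had no common direction. H2-Aa in the IL4+IL13 group stood at 345 and 153 CPM on the plates of mouse 1 and at 473 and 447 CPM on those of mouse 2. With TNF it stood at 673 and 636 CPM in mouse 1 and at 1413 and 1078 CPM in mouse 2. The ranges of the treatments did not overlap, and mouse 2 was the higher mouse under both. H2-Ab1 stood at 337, 174, 498 and 590.5 CPM on plates 2 to 5 without TNF and at 598, 624, 1220.1 and 879 CPM with it. Its plate ranges also did not overlap, although the highest plate without TNF came close to the lowest with it. H2-Eb1 stood at 162, 73.8, 284 and 293 CPM without TNF and at 365, 335, 881 and 637 CPM with it. Cd74 stood at 255, 196, 303 and 362 CPM without TNF and at 542, 646, 693 and 666 CPM with it, and was the member whose 2 mice were closest under TNF.

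**Figure D1:**
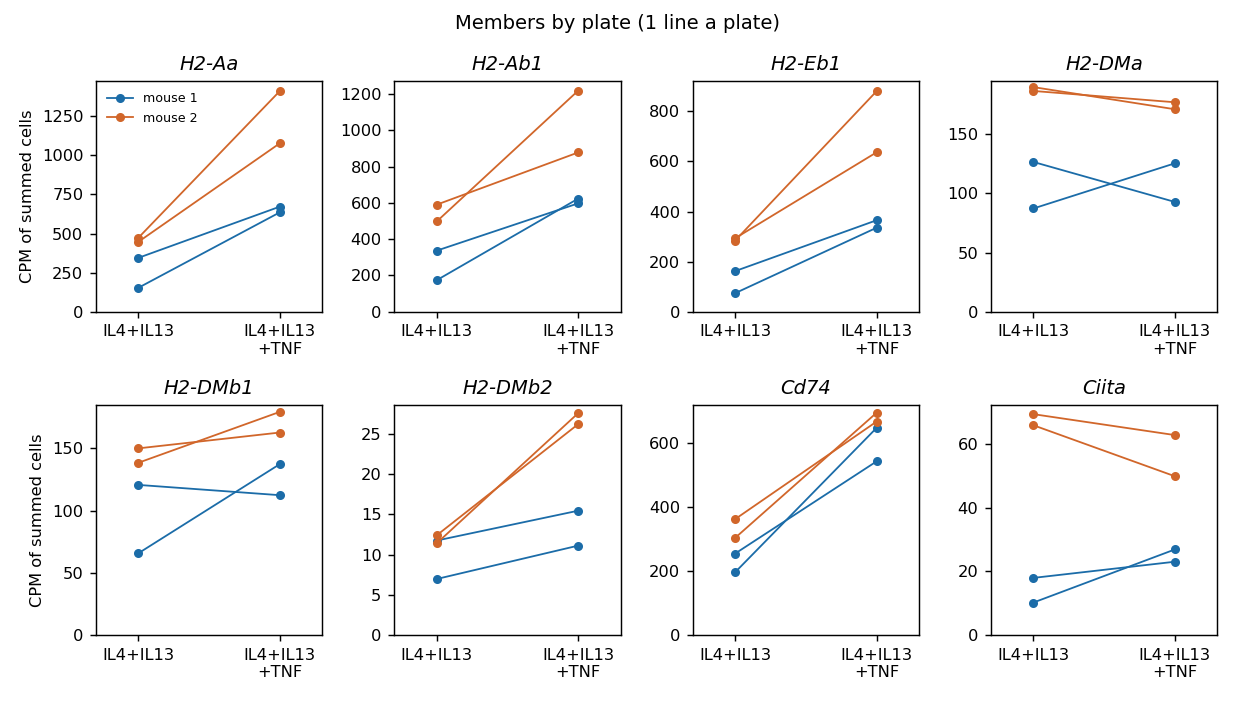
Level of each member on each plate, as CPM of the summed cells (vertical axis, from 0) in IL4+IL13 and IL4+IL13+TNF; each line joins the 2 treatments of 1 plate, blue for mouse 1 and orange for mouse 2. All lines climb for H2-Aa, H2-Ab1, H2-Eb1, H2-DMb2 and Cd74, while those of Ciita climb in mouse 1 and descend in mouse 2.

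On the log2 scale of sums per mouse scaled by TMM, H2-Aa differed by 1.51 (SE 0.42), H2-Ab1 by 1.15 (SE 0.43), H2-Eb1 by 1.54 (SE 0.55) and Cd74 by 1.29 (SE 0.22), all higher with TNF. With treatment as the only term, edgeR's quasi-likelihood test called none of the 8 members in either direction at an adjusted p of 0.05 (Benjamini-Hochberg), and 4 of them had an unadjusted p under 0.05. In that fit 0.00587% of all genes were called higher and 0% lower. Cd74 had the smallest adjusted p of the members, 0.24, and H2-Aa had 0.44. Since cells of the same mouse stood in both groups, a second fit took each mouse as its own block. It called H2-Aa (log2 1.5, SE 0.085, adjusted p = 0.0069), H2-Eb1 (1.57, SE 0.10, adjusted p = 0.0073), H2-Ab1 (1.20, SE 0.11, adjusted p = 0.012) and Cd74 (1.32, SE 0.12, adjusted p = 0.012) by edgeR. These are 4 of 8 members called higher, beside 1.94% of all genes called higher and 1.88% called lower by the same fit. Each SE by edgeR was derived from the log2 difference and the test statistic, whose variance is moderated across all genes. Such an SE is not the spread between mice. Sums per plate with the plate as a block called H2-DMb2 as well, 5 of 8, beside 4.77% of genes higher and 5.22% lower; plates of 1 mouse are not independent, so those p-values are too small. DESeq2 without a block called H2-Aa and Cd74, beside 1.79% of genes called higher and 1.72% lower. The median log2 difference of the 8 members was 1.08 without the block, and that of all genes tested 0.0038.

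The genes of H2-DM, the editor that loads peptides, were not called with the mouse as a block. H2-DMa stood at 127, 87.3, 187 and 190 CPM on plates 2 to 5 without TNF and at 92.8, 126, 177 and 171 CPM with it. It was lower with TNF on 3 plates and higher on plate 3, and the 2 mice differed more than the treatments. Its log2 difference was 0.042 (SE 0.35) without the block and 0.062 (SE 0.11, adjusted p = 0.80 by edgeR) with it. H2-DMb1 stood at 121, 65.9, 139 and 150.1 CPM without TNF and at 112, 138, 179 and 163 CPM with it, lower with TNF on plate 2 alone. Its log2 difference with the block was 0.43 (SE 0.11, adjusted p = 0.11 by edgeR). H2-DMb2 stood at 11.8, 6.99, 11.4 and 12.4 CPM without TNF and at 15.5, 11.1, 27.6 and 26.2 CPM with it. It was higher with TNF on each plate, but the ranges overlapped, and its log2 difference with the block was 0.92 (SE 0.23, adjusted p = 0.10 by edgeR).

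H2-DMb1 and H2-DMb2 are close copies, and 369 of the 1629 different 50-base words in the H2-DMb1 transcripts (22.7%) also occur in those of H2-DMb2. Only uniquely mapped fragments were counted, so such stretches are lost for both genes or, with sequencing errors, can be counted for the wrong copy. H2-DMb2 made up 7.62 to 9.59% of the fragments of the pair on the 4 plates without TNF. With TNF it made up 12.1 and 7.49% in mouse 1 and 13.3 and 13.9% in mouse 2. The share was thus higher on 3 plates and lower on plate 3.

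Ciita, the coactivator itself, did not follow its targets across the sums. It stood at 18 and 10.3 CPM on the plates of mouse 1 without TNF and at 23 and 26.9 CPM with it. In mouse 2 it stood at 69.2 and 65.7 CPM without TNF and at 62.6 and 49.8 CPM with it. Both plates of mouse 1 were higher with TNF and both of mouse 2 were lower, and every plate of mouse 2 was above every plate of mouse 1. The log2 difference without the block was 0.089 (SE 0.78, adjusted p = 0.99 by edgeR), and with the block 0.37 (SE 0.27, adjusted p = 0.51). A test over the 8 plate sums of whether the TNF difference itself differed between the mice gave a log2 value of -1.16 (mouse 2 minus mouse 1, SE 0.39) for Ciita, with an unadjusted p of 0.033 and an adjusted p of 0.63 by edgeR. Each mouse gave 1 value per treatment, so this SE and these p-values measure the spread between plates, which are technical repeats, and not that between mice. No member was called by this test, and 0% of all genes were, while 1315 genes had an unadjusted p under 0.05, Ciita being the 1 member among them. The next largest values were 0.63 (SE 0.27) for H2-DMb2 and -0.42 (SE 0.42) for H2-Ab1.

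Levels were compared between genes only per length, as CPM of the sum divided by kilobases of exon. Ciita was at or near the bottom, with 1.48 and 7.09 CPM per kilobase in mouse 1 and mouse 2 without TNF and 2.64 and 5.89 with it. H2-DMb2 stood in the same range at 5.37 to 15.4, H2-DMa at 31.0 to 54.6 and H2-DMb1 at 55.5 to 102. Cd74 led in both sums of mouse 1, with 134 and 357 CPM per kilobase, ahead of H2-Ab1 with 99.4 and 239. In mouse 2 H2-Ab1 led with 211 and 408, and Cd74 followed with 197 and 405, so these neighbours did not keep an order. H2-Aa and H2-Eb1 were also close, at 65.5 and 60.7 in mouse 1 without TNF and at 328 and 390 in mouse 2 with it.

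Class II was very uneven between cells, and TNF was accompanied by a shift of the middle of the cells rather than of the highest cells alone. The summed CPM of H2-Aa, H2-Ab1 and H2-Eb1 in the median cell without TNF was 7.41 in mouse 1 and 86.6 in mouse 2. With TNF the median cell held 181 CPM in mouse 1 and 311 CPM in mouse 2. The 95th percentile was 3053 and 7240 CPM without TNF and 8356 and 16819 CPM with it. Per plate the medians without TNF were 7.42 and 7.38 CPM in mouse 1 and 94.1 and 71.5 CPM in mouse 2, and with TNF 171, 187, 357 and 269 CPM, so the plates of a mouse were alike.

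Cells below 10 CPM made up 60.5% (exact 95% interval 55.2 to 65.6) of mouse 1 without TNF and 19% (15 to 23.6) with it. In mouse 2 so few cells were this low, 6.61% (4.19 to 9.83) and 4.58% (2.64 to 7.34), that the intervals of the treatments overlapped. Cells from 100 to 1000 CPM made up 8.68% (5.98 to 12.1) of mouse 1 without TNF and 28.5% (23.8 to 33.6) with it, and 29.7% (24.9 to 35.0) and 38.7% (33.5 to 44.0) of mouse 2. Cells of 1000 CPM or more made up 7.84% (5.27 to 11.1) of mouse 1 and 15% (11.4 to 19.3) of mouse 2 without TNF. With TNF they made up 28.2% (23.6 to 33.3) and 35.2% (30.2 to 40.5). This share was higher with TNF on each plate: 9.94, 5.68, 12.7 and 17.5% on plates 2 to 5 without it and 24.4, 31.7, 34.7 and 35.8% with it. The intervals are Clopper-Pearson intervals and cover counting error within a mouse, not the spread between mice.

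**Figure D2:**
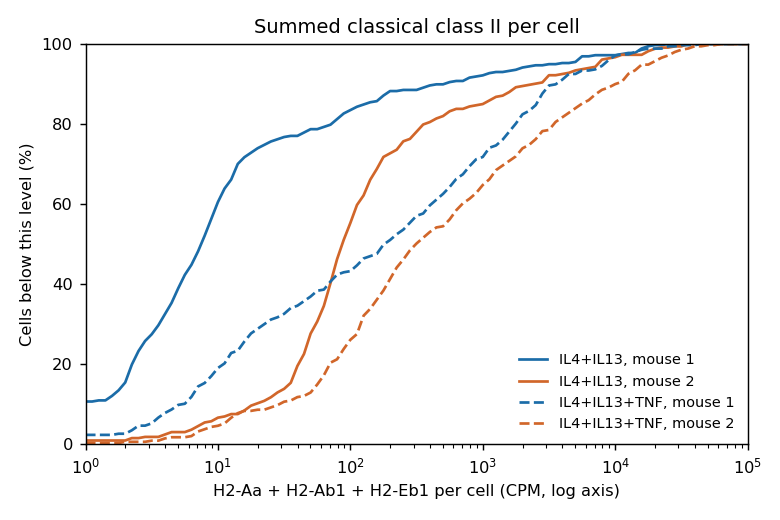
Share of cells (vertical axis, %) whose summed H2-Aa, H2-Ab1 and H2-Eb1 lies below the level on the horizontal axis (CPM, log axis), for each mouse and treatment; dashed lines are cells with TNF. Within each mouse the TNF curve lies to the right of the IL4+IL13 curve at most levels, with medians of 181 and 311 CPM beside 7.41 and 86.6 CPM. In mouse 2 the curves of the treatments meet at low levels, and the TNF curve of mouse 1 crosses the IL4+IL13 curve of mouse 2.

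**Figure D3:**
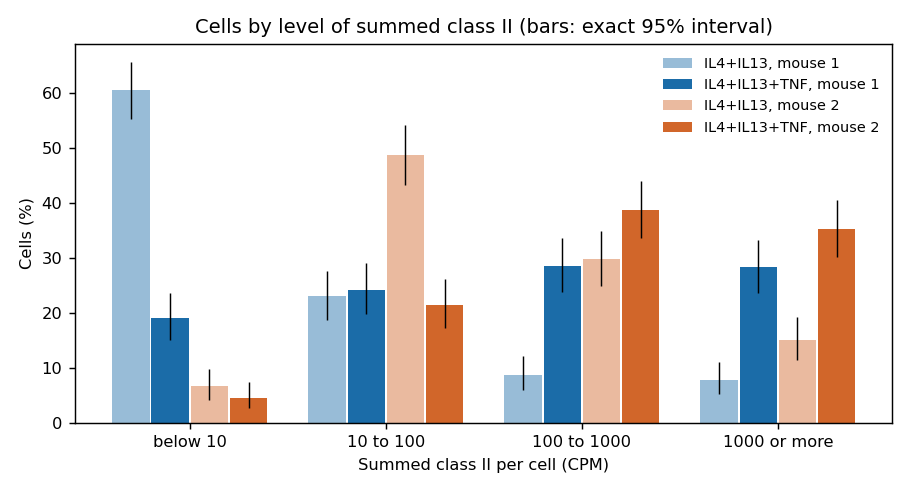
Share of cells (bars, %, from 0) in 4 ranges of summed class II CPM for each mouse (blue 1, orange 2) and treatment (pale IL4+IL13, full IL4+IL13+TNF), with exact 95% intervals as thin lines. In mouse 1 the range below 10 CPM falls from 60.5 to 19% of cells, and in both mice the range of 1000 CPM or more is larger with TNF.

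A small group of cells held most of the class II transcripts without TNF. The 5% of cells with the highest levels, 18 and 17 cells, held 86.5% of the summed class II CPM in mouse 1 and 67.9% in mouse 2. With TNF the highest 5%, 18 cells in each mouse, held 52.0 and 47.3%. The concentration was lower with TNF in both mice. Without the cells above the 95th percentile of each set, the log2 difference was 2.71 (SE 0.72) for H2-Aa, 1.97 (SE 0.77) for H2-Ab1, 2.80 (SE 0.94) for H2-Eb1, 1.74 (SE 0.34) for Cd74 and 0.70 (SE 0.40) for H2-DMb2. For the classical genes a larger value follows from the removal itself, which takes away a larger share of their level without TNF, and none of these passed the test without the block. The fall in concentration is also seen in the coefficient of variation between cells, which for H2-Aa was 419.7 and 349.6% without TNF and 266 and 234% with it.

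The other members were read within the ranges of summed class II. In cells of 1000 CPM or more Cd74 had a median of 1476 and 928 CPM without TNF (mouse 1 and mouse 2) and of 1152 and 1283 CPM with it, with no common direction. In cells from 10 to 100 CPM the median of Cd74 was 32.8 and 28.4 CPM without TNF and 108 and 86.3 CPM with it, higher in both mice. H2-DMa in cells of 1000 CPM or more had a median of 542 and 484 CPM without TNF and of 231 and 339 CPM with it. H2-DMb1 in these cells had 536 and 444 CPM without TNF and 254 and 282 CPM with it. H2-DMb2 had 44.1 and 30.1 CPM without TNF and 19 and 20.4 CPM with it, and Ciita had 58.0 and 173 CPM and 40.6 and 76.0 CPM. In the class II-high cells of both mice the medians of the 3 DM genes and Ciita were thus lower with TNF, while such cells were more numerous. With 28 and 50 such cells without TNF and 98 and 123 with it, and 2 mice, these medians were not tested. The range of 1000 CPM or more has no upper end, and its cells were not matched for class II level. In mouse 1, 92.2% of cells lay below 1000 CPM and 95.2% below 3981 CPM without TNF, beside 71.8 and 91.1% with it. In mouse 2 these shares were 85.0 and 92.5% without TNF and 64.8 and 81.7% with it.

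Since a share of cells with a fragment grows with depth, fragments were drawn at random down to 339000 per cell, and 24 to 44 shallower cells of each set were not used. At this depth Cd74 was found in 90.1 and 96.1% of cells without TNF and in 98.7 and 99.7% with it. Ciita was found in 22.3% (17.9 to 27.2) of mouse 1 and 48.5% (42.8 to 54.3) of mouse 2 without TNF, and in 38.9% (33.4 to 44.7) and 56.2% (50.4 to 61.8) with it. At this depth the share of cells with a Ciita fragment was higher with TNF in both mice, including mouse 2, where its summed level was lower. In mouse 2 the intervals of the treatments overlapped. H2-DMb2 was found in 42.5 and 41.7% of cells without TNF and in 56.8 and 61.1% with it, with differences of 14.3 and 19.4 percentage points. H2-Aa was found in 58.7 and 95.5% without TNF and in 83.8 and 96.1% with it, and H2-Ab1, at 97.1 and 96.4% in mouse 2, was the only member that was not higher in both mice at this depth. At 200000 fragments it was H2-DMa instead, with -1.26 percentage points in mouse 2 beside 1.13 for H2-Ab1. With 2 mice a group the exact two-sided permutation test cannot give a p below 0.33, which H2-DMb2 and Cd74 reached, while Ciita had 0.67. Without thinning, the 5 B cell markers were found in 0 to 5.11% of cells and the 4 T cell markers in 0.280 to 23.5%, the highest being Trac in mouse 1. The unthinned share of Ciita in mouse 1 without TNF was 25.2%, close to that of Trac, so it is not read as a share of cells that express Ciita. Whether class II fragments at a few CPM come from the cell of the well was not tested.

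Members varied together from cell to cell, and Ciita was among the least tightly tied. Across the cells of 1 mouse and treatment, Spearman's rho between pairs of the 3 classical genes was 0.42 to 0.86. H2-DMb1 with H2-DMb2 gave 0.77 to 0.87, the highest mean of the 28 pairs, with the caveat of their shared sequence. Cd74 with the classical genes gave 0.31 to 0.83. Ciita with the other 7 members gave 0.26 to 0.55, always above 0. H2-Aa with Cd74 gave 0.35 and 0.53 without TNF and 0.79 and 0.79 with it, and H2-Aa with H2-Ab1 gave 0.57 and 0.74 without TNF and 0.83 and 0.86 with it. These values are over 333 to 357 cells that share plates and a library preparation, and levels near 1 fragment lower a rank correlation. On log2(CPM + 1), Pearson's r of H2-Aa with H2-Ab1 was 0.83 and 0.84 without TNF and 0.82 and 0.87 with it, so the contrast between treatments is one of ranks in that pair. The summed class II itself had a rho of -0.13 to 0.10 with the number of fragments per cell.

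**Figure D4:**
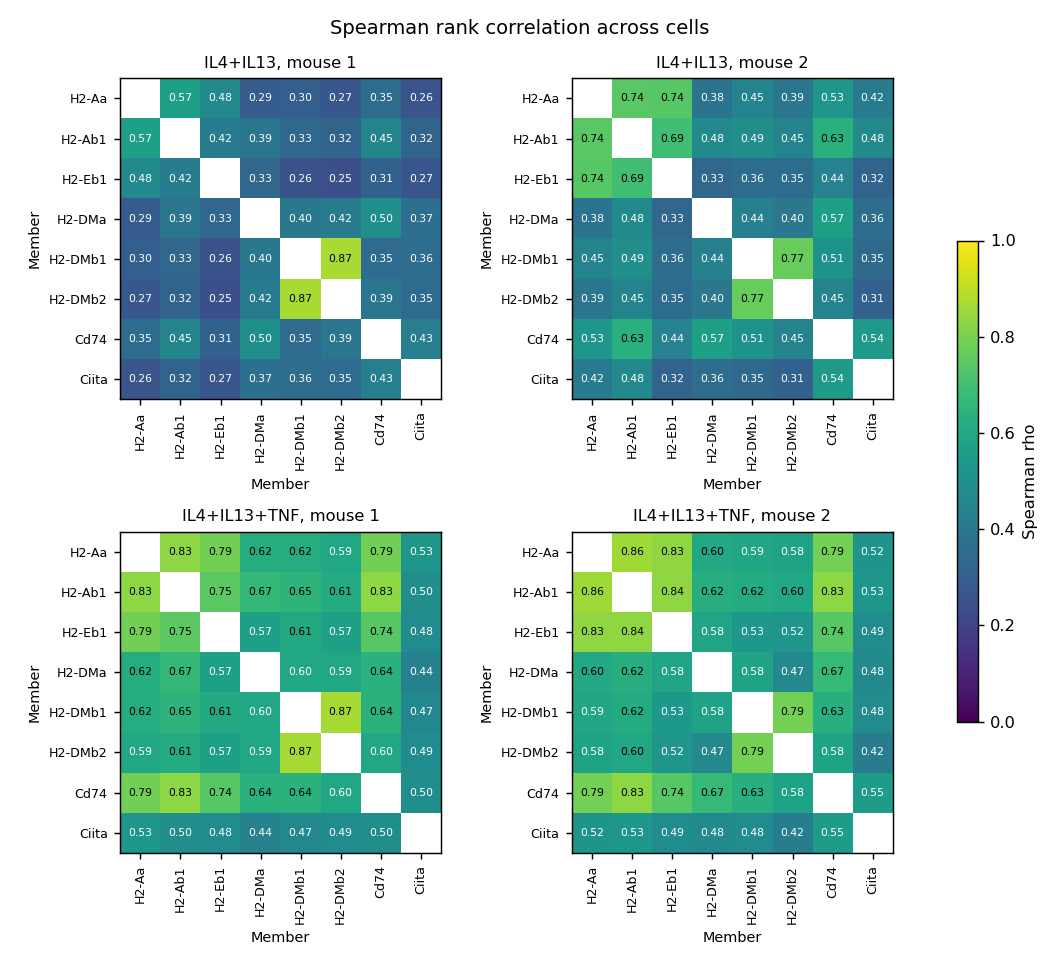
Spearman's rho across cells for each pair of members, in 1 panel for each treatment and mouse (colour from 0 to 1, value in each square). Pairs with H2-Aa, H2-Ab1, H2-Eb1 and Cd74 are higher with TNF, as for H2-Aa with Cd74 at 0.35 and 0.53 without TNF and 0.79 in both mice with it.

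Cells in which Ciita was found held more class II than cells in which it was not. After thinning, the median of summed class II in mouse 1 without TNF was 63.4 CPM in 74 cells with Ciita and 5.90 CPM in 258 cells without it. In mouse 2 without TNF it was 195 CPM in 150 cells with Ciita and 67.8 CPM in 159 cells without it. With TNF the medians were 1074 and 1066 CPM in cells with Ciita and 59.0 and 158 CPM in cells without it. The order was the same in the 4 sets, and the cells with Ciita were alike in the 2 mice under TNF. Of cells in which Ciita was not found, 2.71 and 4.40% held 1000 CPM or more of class II without TNF, and 14.6 and 17.9% with it. At 1 to a few fragments per cell, a cell without a Ciita fragment can still express the gene.

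**Figure D5:**
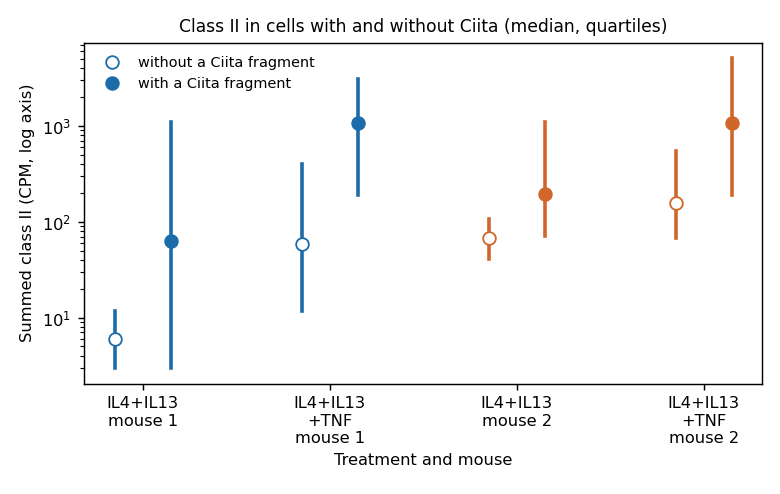
Summed class II CPM (vertical log axis) in cells with (filled) and without (open) a Ciita fragment after thinning, for each treatment and mouse (blue 1, orange 2); points are medians and bars span the quartiles. The filled point is above the open one in each set, with medians of 1074 and 1066 CPM for cells with Ciita under TNF.

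Within a set of cells, rank correlations of class II with the chosen M2 and TNF-response genes lay within -0.19 to 0.25, except for Mrc1. Only Mrc1 and Mgl2 kept 1 sign. Clec10a and Mgl2, lectins of M2 macrophages, had a rho of -0.035 to 0.15 and of 0.037 to 0.23 with summed class II, and Retnla (RELMα) had -0.051 to 0.13. Mrc1, the mannose receptor, had -0.40 to -0.21, below 0 in the 4 sets, with a mean of -0.29. Of the TNF-response genes, Clec4e and Saa3 had -0.18 to 0.090 and -0.19 to 0.051, and Arg1, the M2 arginase, had -0.080 to 0.028. Ccl5 had -0.0070 to 0.13, Tnf -0.016 to 0.14 and Il1b -0.081 to 0.25. Il1b stood at only 0.011 and 0.018 CPM in mouse 1 without and with TNF, so its rho there rests on very few fragments. In mouse 2 it stood at 3.20 and 3.29 CPM, hardly different with TNF. Saa3 was also low without TNF, at 0.65 and 1.69 CPM.

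Of 14098 genes found in 10% or more of the cells, 3927 had the same sign of rho with summed class II in the 4 sets. The 10 with the highest mean were Lsp1 (0.37), Cd52 (0.34), Axl (0.32), Clec4b1 (0.30), Ctsh (0.30), Csf2rb (0.29), Selplg (0.29), Ramp1 (0.29), Psmb8 (0.28) and Itgb7 (0.28). Lsp1 encodes a leukocyte actin-binding protein, Csf2rb the shared beta chain of the GM-CSF and IL3 receptors, Ctsh a lysosomal protease and Psmb8 an immunoproteasome subunit. The level of such a gene need not move with TNF as class II does: Lsp1 stood at 405 and 444 CPM without TNF and at 144 and 283 CPM with it, whereas Cd52 stood at 395 and 557 CPM and at 1114 and 1271 CPM. The 5 with the lowest mean were Spp1 (-0.41), Ctsl (-0.34), Gas6 (-0.32), Syngr1 (-0.31) and Mgst1 (-0.30). Spp1 encodes osteopontin, and Ctsl a lysosomal protease that can cut the invariant chain.

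Of the markers of dendritic cells, which are rich in class II, Ccr7 and Zbtb46 moved with these results. The 9 dendritic markers summed to 22.9 and 45.4 CPM without TNF and to 44.0 and 232 CPM with it, with 2 of the 9 higher and 2 lower with TNF in both mice. Ccr7, a chemokine receptor of mature dendritic cells, made up most of that sum only in mouse 2 with TNF. It stood at 0.11 and 0.45 CPM without TNF and at 20.5 and 190.0 CPM with it. Batf3 was the largest of the 9 without TNF, at 12.9 and 30.7 CPM. With TNF it stood at 14.1 and 26.1 CPM, with no common direction. Zbtb46, a transcription factor of classical dendritic cells, stood at 0.33 and 3.12 CPM and at 1.38 and 6.55 CPM. Cd209a and Siglech were lower with TNF in both mice, Xcr1 and Clec9a were below 1 CPM in each sum, and Flt3 was at an even 6.94 to 7.36 CPM in the 4 sums. Cells with 10 CPM or more of Ccr7 and Zbtb46 together were 3 of 357 and 7 of 333 without TNF, and 15 of 347 and 34 of 349 with it. In mouse 2 with TNF these 34 cells (9.74%, 6.84 to 13.3) had a median of 6389 CPM of class II beside 266 CPM in the other cells. They held 39.6% of its summed class II, 23.9% of its Cd74 and 56.8% of its H2-DMb2. In mouse 1 with TNF the 15 cells held 16% of the class II and had a median of 124 CPM, below the 189 CPM of the other cells.

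The TNF differences were recomputed without all cells that held Ccr7 or Zbtb46 at this level. H2-Aa then differed by 1.24 (SE 0.31), H2-Ab1 by 1.05 (SE 0.36), H2-Eb1 by 1.17 (SE 0.43) and Cd74 by 1.25 (SE 0.21) on the log2 scale, in the fit without the block. H2-DMb2 went from 1.00 (SE 0.40) to 0.23 (SE 0.27). All 5 values were lower without these cells, least for Cd74 and H2-Ab1 and most for H2-DMb2. Ccr7 was itself higher with TNF in both mice, so the cells were not chosen independently of the treatment. Of the 8 macrophage markers, 6 were lower with TNF in both mice and Lyz2 (lysozyme) was higher, and their part in the results was not tested. Of the other marker lists, 4 of 5 B cell, 3 of 4 T cell and 4 of 5 neutrophil genes were below 1 CPM in each sum.

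The rest of the class II pathway was read from a list of 45 genes, of which 41 passed the filter on low values and none was called by edgeR without the block. The list and the 41 include H2-Q10, which is a class I gene. Of the 41 genes 10 had an unadjusted p under 0.05, beside 8.1% of all genes. DESeq2 called 5, beside 1.79% of all genes called higher and 1.72% lower. With the mouse as a block 6 were called higher and 1 lower, beside 1.94 and 1.88% of all genes. Sums per plate called 8 higher and 2 lower, beside 4.77 and 5.22% of all genes. The median log2 difference of the 41 was 0.087 without the block. None of the 7 factors that bind class II promoters was called. Of these Rfx5, the RFX subunit that contacts the X box, stood at 8.57 and 10.1 CPM without TNF and at 3.0 and 6.56 CPM with it, lower on each plate, with a log2 difference of -0.98 (SE 0.30, adjusted p = 0.15 by edgeR with the block). Among 12 genes that induce Ciita only Jak2, a kinase of the interferon gamma receptor, was called with the mouse as a block, at 27.3 and 48.9 CPM without TNF and 45 and 103 CPM with it (log2 0.99, SE 0.14, adjusted p = 0.029 by edgeR). Sums per plate also called Ifngr2, a chain of that receptor (log2 0.58, SE 0.076, adjusted p = 0.011 by edgeR). Ifngr2 stood at 159 and 148 CPM without TNF and at 236 and 198 CPM with it. With the mouse as a block it was not called (log2 0.59, SE 0.10, adjusted p = 0.052 by edgeR). Irf4, a factor of M2 activation, stood at 21.9 and 47.5 CPM without TNF and at 17.2 and 24.7 CPM with it, lower on each plate without passing the test. Prdm1, which encodes the Ciita repressor Blimp1, stood at 0.60 and 4.58 CPM without TNF and at 5.42 and 8.62 CPM with it, a log2 difference of 2.10 (SE 0.59, adjusted p = 0.13 by edgeR with the block).

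Of 10 genes for making and loading peptides, Ctsz and Ifi30 were called higher and Lgmn lower with the block, beside 1.94 and 1.88% of all genes. Sums per plate also called Ctss higher (adjusted p = 0.013) and Ctsc lower (adjusted p = 0.019 by edgeR), beside 4.77 and 5.22% of all genes. With the block Ctss and Ctsc were not called (adjusted p = 0.053 and 0.067 by edgeR). Ctsz, a lysosomal carboxypeptidase, stood at 2555 and 2473 CPM without TNF and at 4424 and 4371 CPM with it (log2 0.90, SE 0.063, adjusted p = 0.0077 by edgeR). Lgmn, the asparagine endopeptidase of the endosome, stood at 1363 and 1075 CPM without TNF and at 661 and 644 CPM with it (log2 -0.80, SE 0.10, adjusted p = 0.025 by edgeR). Ifi30, a thiol reductase that unfolds antigens, stood at 239 and 269 CPM and at 349 and 421 CPM (log2 0.69, SE 0.095, adjusted p = 0.028 by edgeR). Of 6 partners on the surface that T cells read with class II, 3 were called higher with the block, beside 1.94% of all genes. Icam1, an adhesion molecule, stood at 17.2 and 26.5 CPM without TNF and at 125 and 98.1 CPM with it (log2 2.47, SE 0.26, adjusted p = 0.015). Pdcd1lg2 (PD-L2) stood at 2.36 and 5.14 CPM and at 15.4 and 24.6 CPM (log2 2.58, SE 0.22, adjusted p = 0.011), and Cd274 (PD-L1) at 27.9 and 41.8 CPM and at 84.5 and 103 CPM (log2 1.55, SE 0.13, adjusted p = 0.011), each by edgeR with the block. H2-Oa and H2-Ob, the chains of the H2-DM inhibitor H2-DO, and H2-Eb2 did not pass the filter and stood at 0.0056 to 3.08 CPM.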

How the data were processed

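The authors deposited counts of fragments per gene and well, not normalized. Per the labels and the file header, the aligner was gsnap, with mm10 as genome and splice sites from Ensembl. Only fragments with a single best position entered the table, counted by featureCounts 1.6.3 without regard to strand. No molecular identifiers were used, so PCR copies are counted and intervals cover counting error only. Spike-in rows (92) stayed out of totals, 8 columns matching no sample were not used, and 4 samples whose labels give no mouse were assigned to no group. Wells were left out where the log total or log number of detected genes lay over 3 median absolute deviations below the plate's median, or the mitochondrial or spike-in share as far above it. No doublet caller was run on singly sorted cells.

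For each mouse and treatment the kept cells were added up. The 4 sums entered edgeR 4.0.16 (quasi-likelihood, TMM, Benjamini-Hochberg, threshold 0.05; R 4.3.3) in a model of treatment alone. The SE of an edgeR fit is the absolute log2 difference divided by the root of the F statistic of its test. A gene had to be seen in 5% or more of the kept cells of at least 1 treatment and to pass filterByExpr. The same animals supplied both treatments, and deviations of a mouse from the treatment means correlated at r = 0.57 over 17034 genes, so the mouse was taken as a pairing block beside it. Alternatives were plate sums, DESeq2 1.42.0, limma 3.58.1 on log2(CPM + 1) or log2(CPM + 0.1), library size, no gene filter, other cell filters (1000 genes and 10% mitochondrial, or none) and leaving out each sum. The fits were tested on simulated data first. The members and lists were chosen with earlier results of these data known. Of the pathway list, the 3 largest rises and falls common to both mice and all plates were to be named. Jak2, Ifngr2, Ctsz, Ctss, Ctsc, Ifi30 and Cd274 were named after their values were seen. Genes like class II were those found in 10% or more of cells with the highest or lowest mean rho and 1 sign in the 4 sets.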

Additional observations from a re-analysis of the deposited data

Results flagged for a closer look

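Ciita was higher with TNF on both plates of mouse 1 and lower on both of mouse 2. H2-DMa also had opposite directions in the sums of the mice, but not on both plates of each. The test of that difference over plate sums gave -1.16 on the log2 scale (mouse 2 minus mouse 1), and its adjusted p by edgeR, 0.63, missed the threshold; it is set against the spread between plates only. Ciita was also the member that differed most between the mice without TNF as a ratio, at 14.1 and 67.6 CPM.

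3 IL4+IL13 wells whose labels give no mouse stood outside the comparisons, and class II was present in each above the limit of 3 fragments. H2-Aa stood at 182, 547 and 436 CPM in the wells of plates 3, 4 and 5, H2-Ab1 at 165, 358 and 298 CPM, H2-Eb1 at 25, 183 and 287 CPM and Cd74 at 311, 355 and 573 CPM. What these wells hold is not given in the sources used here, and the well of plate 5 held only 87198 fragments.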

How the results depend on the processing

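Without a block none of the 8 members and none of the 41 other pathway genes was called by edgeR. With the mouse as a replicate block 4 members were called higher and 7 pathway genes were called, with plate sums 5 and 10, and with DESeq2 2 and 5. Of all genes, 1.94% were called higher and 1.88% lower with the block, and 4.77 and 5.22% with plate sums. DESeq2 called 1.79% of all genes higher and 1.72% lower. No other alternative called a member, and none called one lower. The block left the log2 difference of H2-Aa at 1.5, beside 1.51. Differences of H2-Aa, H2-Ab1, H2-Eb1, H2-DMb1, H2-DMb2 and Cd74 kept their direction under each alternative. H2-DMa and Ciita turned with library size in place of TMM (-0.051 and -0.0067 on the log2 scale), which moved the median of all genes to -0.089. They also turned without the IL4+IL13 sum of mouse 1 (-0.31 and -0.64) and without the IL4+IL13+TNF sum of mouse 2 (-0.30 and -0.58); the spread there comes from the group that still has both mice. Leaving out single sums gave 0.99 to 2.01 for H2-Aa, 0.71 to 1.78 for H2-Ab1, 0.89 to 2.31 for H2-Eb1, 1.05 to 1.59 for Cd74, 0.14 to 0.75 for H2-DMb1, 0.41 to 1.42 for H2-DMb2, -0.31 to 0.49 for H2-DMa and -0.64 to 1.6 for Ciita. Without cells above 10 CPM of Flt3, Zbtb46 and Ccr7, H2-DMb2 fell to 0.27; Flt3 lay at an even low level in most cells, so the cut on Ccr7 and Zbtb46 alone was added after the data were seen. The differences in the share of cells with a fragment kept their mean direction under each alternative. In mouse 2 the direction turned for H2-DMa at 200000 fragments, without thinning and without a cell filter, and for H2-Aa with the fixed cell filter. For H2-Ab1 it turned to higher with TNF in mouse 2 at 200000 fragments and where at least 5 fragments were asked for. Of the recomputed mean correlations between members 83 moved by less than the spread between sets, and H2-Eb1 with Ciita moved to 0.50 as Pearson's r of log2(CPM + 1). The cause of these changes was not tested. With 2 mice a treatment, Ciita had the largest SE of the members, 0.78 on the log2 scale.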
